A study of Rattus norvegicus with 74 samples.

Results

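The miR-23, miR-24 and miR-27 clusters are a pair of duplicated groups of microRNAs (miRNAs), here called the a cluster (miR-23a, miR-27a and miR-24-2) and the b cluster (miR-23b, miR-27b and miR-24-1). Their members were taken by name from the rat array, which carried 11 mature arms of the clusters, and the 7 arms detected on at least 1 array are described here out of 311 miRNAs so detected and 677 on the array. The 5 3p arms, rno-miR-23a-3p, rno-miR-23b-3p, rno-miR-24-3p, rno-miR-27a-3p and rno-miR-27b-3p, were detected on all 74 arrays. Of the 5p arms, rno-miR-24-2-5p was detected on 70 arrays and rno-miR-23a-5p on 61, and both come from the a cluster. The other 4 arms, rno-miR-23b-5p, rno-miR-24-1-5p, rno-miR-27a-5p and rno-miR-27b-5p, were detected on 0 of the 74 arrays. Kidneys came from untreated female and male F344 (Fischer) rats, an inbred laboratory strain. The younger groups were 2, 5, 6 and 8 weeks old and the older groups 15, 21, 78 and 104 weeks. Total RNA was made from homogenized whole kidney, with a separate animal for each array and 4 or 5 animals to a group.

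A miRNA is a short RNA that guides an Argonaute protein to messenger RNAs with sites complementary to its seed, the bases next to its 5′ end, and lowers their translation or stability. Each cluster is transcribed as a single primary transcript that is cut into 3 hairpins, and each hairpin can give a 5p and a 3p arm, of which usually 1 is kept. The clusters are known from endothelium, muscle, fat and immune cells, where miR-27 represses the adipocyte regulator Pparg and miR-24 represses regulators of apoptosis and the cell cycle. In whole kidney the miRNAs of tubules, vessels and blood cells are measured together, so that fewer cells of a type and less RNA per cell cannot be told apart.

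The mature sequences show how alike the copies are, and thus what the comparison of an a copy with its b copy has to separate. RefSeq (build GRCr8) held 10 of the 11 arms, and gave these for the 3p arms, from 5′ to 3′, with the seed (bases 2 to 8) in capitals.
rno-miR-23a-3p: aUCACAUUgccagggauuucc
rno-miR-23b-3p: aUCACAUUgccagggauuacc
rno-miR-27a-3p: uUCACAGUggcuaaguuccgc
rno-miR-27b-3p: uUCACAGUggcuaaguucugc
rno-miR-24-3p: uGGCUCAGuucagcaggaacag
The miR-23 copies shared 1 seed and differed at 1 of 21 bases, U19A with the a copy's base first and positions counted from the 5′ end. The miR-27 copies also shared 1 seed and differed at 1 of 21 bases, C19U. Within the seed, miR-23a and miR-27a differed by U7G alone.

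The a cluster lies on chromosome 19, positions 40859455 to 40859843 of the minus strand in GRCr8, and the b cluster on chromosome 17, positions 1818669 to 1819482 of the minus strand, inside the annotated span of the aminopeptidase gene Aopep and of the Fanconi anaemia gene Fancc. Either cluster ends in a miR-24 hairpin, shown here with the mature arms in capitals because both give the same 3p arm.
Mir24-2 (a cluster): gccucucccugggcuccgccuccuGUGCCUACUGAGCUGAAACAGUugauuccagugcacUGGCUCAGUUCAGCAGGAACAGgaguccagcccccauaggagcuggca
Mir24-1 (b cluster): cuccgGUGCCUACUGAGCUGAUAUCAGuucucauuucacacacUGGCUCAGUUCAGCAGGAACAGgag
The 3p arms are identical, so an array reading of rno-miR-24-3p cannot be assigned to a cluster. The 5p arms differ at 5 of 22 bases (U17A, U19C, C20A, A21G and G22U, with the Mir24-1 base first) and had probes of their own.

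Intensities are given as the array's total signal of a miRNA divided by that array's 75th percentile over the 311 detected miRNAs, hereafter the normalized intensity. Each 3p arm was read by 2 probes of 10 spots each. Whether a probe of 1 copy also bound the other copy was not tested. Levels of different miRNAs on an array depend on their probes and were not set against each other. Ratios of copies are therefore compared between groups only, as differences from group to group. Arrays from rats of 2 to 8 weeks lay on 5 slides and those of 15 to 104 weeks on another 5, apart from 1 array of a 15-week female. Differences between these spans of age therefore cannot be told apart from differences between slides. In a deposited table of normalized values, 69 of the 74 arrays stood under another sample name than their scanner output did. Which naming is right was not tested. The groups used here are those under which each array's scanner output was deposited, and all comparisons of age and sex depend on that choice. Comparisons of 8 with 2 weeks, of 104 with 15 weeks and between the sexes lay within these sets of slides, apart from that 1 array of a 15-week female. The tests used all arrays of the groups compared, with no term for slide unless said. Not every slide held both groups compared, and 3 held females of both 2 and 8 weeks. The tubular miRNAs miR-192-5p, miR-194-5p and miR-204-5p were detected on all 74 arrays. Of the striated muscle miRNAs listed, miR-1-3p and miR-133a-3p were detected on 0 arrays and miR-206-3p on 17.

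The ratio of rno-miR-23a-3p to rno-miR-23b-3p shifted toward the a copy in both sexes over each pair of ages compared. On the log2 scale it rose by 0.55 between 2 and 8 weeks in females and by 0.50 in males, and between 15 and 104 weeks it rose by 0.39 in females and by 0.45 in males. In 2-week females the log2 ratio was -0.93, -1.25, -1.30 and -1.25 on the 4 arrays, and in 8-week females it was -0.65, -0.59, -0.68 and -0.63. In 2-week males it lay between -1.15 and -1.05 on 5 arrays, and in 8-week males between -0.77 and -0.55 on 4. All arrays of 8 weeks were thus above all arrays of 2 weeks of the same sex, and the difference had the same sign on 3 of 3 slides in females and on 4 of 4 in males.

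In the later comparison, the log2 ratio in females averaged -0.80 ± 0.18 (SD, n = 5) at 15 weeks, against -0.41 ± 0.07 (SD, n = 5) at 104 weeks. In males it averaged -0.50 ± 0.07 (SD, n = 5) at 15 weeks, against -0.05 ± 0.05 (SD, n = 4) at 104 weeks. Here too the arrays of 104 weeks were all above those of 15 weeks, in either sex. The exact two-sided permutation test gave p = 0.0286 for 8 against 2 weeks in females, the smallest p that 4 against 4 arrays allow, and p = 0.00794 for each of the other 3 comparisons, likewise the smallest possible. Adjusted over the 8 age comparisons of both ratios, these exact p-values were 0.0457 and 0.0159. Without any 1 of the 8-week females, the first of these was 0.0914 and no longer passed, with a difference of at least 0.51. The course in between was not steady in females, in which the group mean was -0.63 at 5 weeks, -0.85 at 6 weeks, -0.53 at 21 weeks and -0.80 at 78 weeks. Since the ratio is taken within an array, dividing an array by any other number leaves it as it is.

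The ratio of rno-miR-27a-3p to rno-miR-27b-3p shifted in 1 of its 4 age comparisons, that of 104 with 15 weeks in males. There the log2 ratio averaged -0.75 ± 0.07 (SD, n = 5) at 15 weeks, against -0.36 ± 0.14 (SD, n = 4) at 104 weeks, a rise of 0.39 with no overlap between the arrays (exact permutation p = 0.00794, adjusted 0.0159). In females it averaged -0.81 ± 0.17 (SD, n = 5) at 15 weeks, against -0.79 ± 0.11 (SD, n = 5) at 104 weeks, a difference of 0.01 (exact permutation p = 0.897). Between 2 and 8 weeks it differed by -0.17 in females (exact permutation p = 0.314) and by 0.11 in males (exact permutation p = 0.349), and the arrays overlapped in both. A difference of this size lay within the spread of the 2-week arrays, whose SD was 0.28 in females and 0.21 in males.

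**Figure D1:**
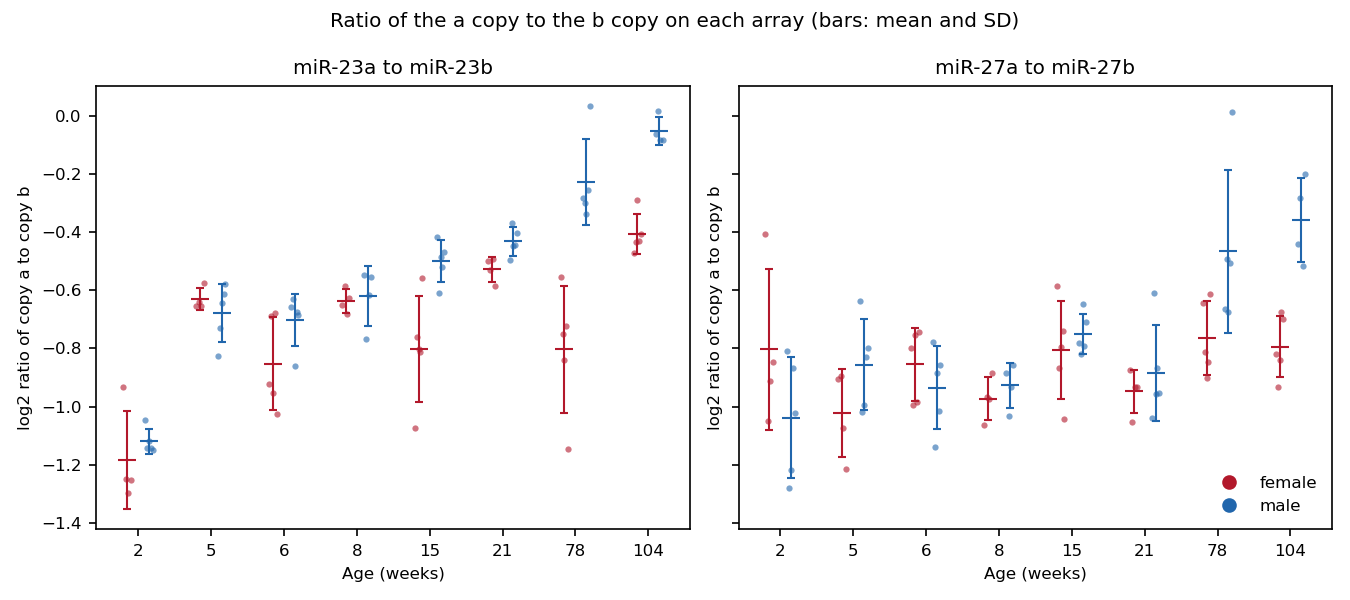
Log2 ratio of the a copy to the b copy on each array (vertical axis) by age in weeks (horizontal axis), for miR-23 on the left and miR-27 on the right, with females in red and males in blue. Points are arrays and bars the mean and SD of 4 or 5 arrays; the miR-23 ratio of 2-week rats sits lowest, and at 104 weeks all 4 males lie above all 5 females in both panels.

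Between the sexes, both ratios were higher in males at 104 weeks. For miR-23 the log2 ratio at 104 weeks was -0.06, 0.02, -0.08 and -0.08 in the 4 males and lay between -0.47 and -0.29 in the 5 females, a difference of 0.35. For miR-27 it was -0.44, -0.28, -0.52 and -0.20 in the males and lay between -0.93 and -0.68 in the females, a difference of 0.43. Each difference had exact permutation p = 0.00794 and adjusted p = 0.0423 over the 16 comparisons of both ratios at the 8 ages. The males were higher on all 4 slides that held both sexes of this age, for either ratio.

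At 78 weeks the miR-23 ratio also differed, by 0.57, with -0.23 ± 0.15 (SD, n = 5) in males and -0.80 ± 0.22 (SD, n = 5) in females (exact permutation p = 0.00794, adjusted 0.0423). The miR-27 ratio differed by 0.30 at that age and did not pass after adjustment (exact permutation p = 0.0476, adjusted 0.127). At 15 weeks the miR-23 ratio was 0.30 higher in males, with arrays that overlapped (exact permutation p = 0.0159, adjusted 0.0635). At 2, 5, 6 and 8 weeks the differences of the miR-23 ratio lay between -0.05 and 0.15, and those of the miR-27 ratio between -0.24 and 0.17. None of these 8 passed, with adjusted exact permutation p-values of at least 0.145. All of the calls between the sexes rest on the smallest p that the arrays allow, and leaving out any array of 104 weeks, or replicate 6 of the 78-week males, raised the adjusted p-values over 0.05 with little change in the differences. Without 104-week female replicate 1, for example, the miR-23 difference at 104 weeks was 0.34 and the adjusted exact permutation p was 0.0914.

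The levels behind these ratios differed by copy. The 3p arm of miR-23a rose between 2 and 8 weeks in both sexes, but its course over all ages was not steady. In females its mean was 21.1 at 5 weeks, 19.0 at 6 weeks, 23.2 at 21 weeks and 21.9 at 78 weeks. In males it was 23.8 at 21 weeks and 22.1 at 78 weeks. The test of age was a moderated F statistic from limma, over all 8 ages of a sex. In the setting reported rno-miR-23a-3p was the only 3p arm that passed both this test and a fold of 1.5 between a pair of ages. Its normalized intensity was 20.9, 14.4, 13.1 and 13.7 in the 4 females of 2 weeks and 22.6, 24.0, 21.3 and 22.4 in the 4 females of 8 weeks. In males it was 15.6, 13.2, 14.0, 15.9 and 14.6 at 2 weeks and 21.9, 17.6, 21.1 and 23.3 at 8 weeks. All 8-week arrays were higher than all 2-week arrays of their sex, although the 20.9 of 1 female of 2 weeks lay close to the 8-week values. The difference was 0.57 ± 0.11 on the log2 scale (limma estimate and SE, 1.48-fold, adjusted p = 2.64e-05) in females and 0.51 ± 0.11 (1.43-fold, adjusted p = 3.94e-05) in males. Both of its probes gave log2 differences between 0.51 and 0.57 in these comparisons. The adjusted p rose over 0.05 with a normexp background correction, to 0.468 in females and 0.094 in males. It also rose with quantile normalization in females, to 0.0572, and there with the methods' t-test, to 0.0535.

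At 15 weeks rno-miR-23a-3p averaged 20.7 ± 2.42 (SD, n = 5) in females, and the males had 20.4 ± 1.17 (SD, n = 5). At 104 weeks the females had 26.0 ± 2.21 (SD, n = 5) and the males 24.3 ± 3.34 (SD, n = 4). The later rise was 0.33 ± 0.10 on the log2 scale in females (limma, adjusted p = 0.0226) and 0.24 ± 0.11 in males (adjusted p = 0.0888). In females its adjusted p went over 0.05 without replicate 3 of 104 weeks or without replicates 1 or 2 of 15 weeks, with a difference of at least 0.28 throughout. That adjusted p also went over 0.05 with quantile normalization (0.12, adjusted p = 0.651), normexp (0.20, adjusted p = 0.935), the percentile over all miRNAs (adjusted p = 0.142), all miRNAs tested (adjusted p = 0.0517) and the methods' t-test (adjusted p = 0.0823). The moderated F test over all ages gave an adjusted p of 0.000156 in females and 7.44e-07 in males. The largest difference was that of 104 with 2 weeks, 1.70-fold in females and 1.65-fold in males, which lay across the sets of slides. With slide as a block the adjusted p was 0.00103 in females and 1.76e-05 in males, but with pairs of ages limited to the same set of slides 0 members were called in males. With the percentile over all miRNAs or over those detected on all arrays, 3 members were called with age in males instead of 1. The level did not differ detectably between the sexes at any age, with log2 differences from -0.11 to 0.10 and adjusted p-values of at least 0.659.

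The 3p arm of miR-23b was lower in old males than in females of their age. In females of 78 weeks its normalized intensity was 33.0, 34.6, 38.8, 42.4 and 41.9, and in males of 78 weeks it was 25.0, 28.5, 28.8, 26.4 and 21.6. At 104 weeks it was 32.4, 33.7, 35.8, 36.0 and 34.0 in females and 23.0, 27.0, 28.7 and 22.2 in males. No male of these ages reached the lowest female of the same age. The difference was -0.55 ± 0.08 on the log2 scale (limma estimate and SE, 1.46-fold lower in males, adjusted p = 3.86e-07) at 78 weeks and -0.45 ± 0.08 (1.37-fold lower, adjusted p = 1.93e-05) at 104 weeks. It was negative on 5 of 5 slides at 78 weeks, from -0.96 to -0.28, and on 4 of 4 slides at 104 weeks, from -0.62 to -0.26. Either probe alone gave -0.51 and -0.57 at 78 weeks and -0.43 and -0.46 at 104 weeks. At 15 weeks males were also lower, by -0.31 ± 0.08 (adjusted p = 0.00393). This difference did not pass with the percentile over all miRNAs (-0.047, adjusted p = 1) or over those detected on all arrays (-0.21, adjusted p = 0.0989), with quantile normalization (adjusted p = 0.053) or with normexp (adjusted p = 0.891). At 2, 5, 6, 8 and 21 weeks the differences lay between -0.13 and -0.03, with adjusted p-values of at least 0.439.

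The 3p arm of miR-27b, the neighbour of miR-23b on the primary transcript, was also lower in old males. At 78 weeks its normalized intensity was 12.5, 12.6, 14.0, 14.7 and 11.5 in females and 10.5, 10.7, 11.2, 10.3 and 8.43 in males. At 104 weeks it was 12.9, 13.4, 15.6, 13.7 and 13.4 in females and 9.93, 11.0, 11.8 and 9.64 in males. The sexes did not overlap at either age. The difference was -0.35 ± 0.07 on the log2 scale (limma, 1.28-fold lower in males, adjusted p = 0.000241) at 78 weeks and -0.38 ± 0.08 (1.30-fold lower, adjusted p = 0.000135) at 104 weeks, and it was negative on 5 of 5 and 4 of 4 slides. At the other 6 ages it lay between -0.14 and 0.07, with adjusted p-values of at least 0.309.

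These differences in level depend on how arrays are scaled, since the median of the 166 miRNAs detected on all arrays was itself -0.16 lower in males at both 78 and 104 weeks. With the 75th percentile taken over all 677 miRNAs of the array, this median moved up by 0.24 at 78 weeks and by 0.15 at 104 weeks, and rno-miR-23b-3p then differed by -0.31 at both ages (adjusted p = 0.131 and 0.194). Under the same scaling rno-miR-27b-3p differed by -0.11 and -0.23 (adjusted p = 0.879 and 0.416). With quantile normalization rno-miR-23b-3p remained past the threshold at 78 weeks and differed by -0.17 at 104 weeks (adjusted p = 0.243), and rno-miR-27b-3p differed by -0.15 and -0.10 (adjusted p = 0.0651 and 0.291). With the percentile over miRNAs detected on all arrays rno-miR-27b-3p did not pass at 104 weeks (-0.19, adjusted p = 0.0922), and the other 3 differences still did. With normexp none of the 4 passed, with differences of -0.38 and -0.33 for rno-miR-23b-3p (adjusted p = 0.438 and 0.609) and of -0.22 and -0.25 for rno-miR-27b-3p (adjusted p = 0.45 and 0.609). With the methods' t-test the difference of rno-miR-27b-3p at 78 weeks did not pass (adjusted p = 0.0649). The direction was the same under each of these settings.

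**Figure D2:**
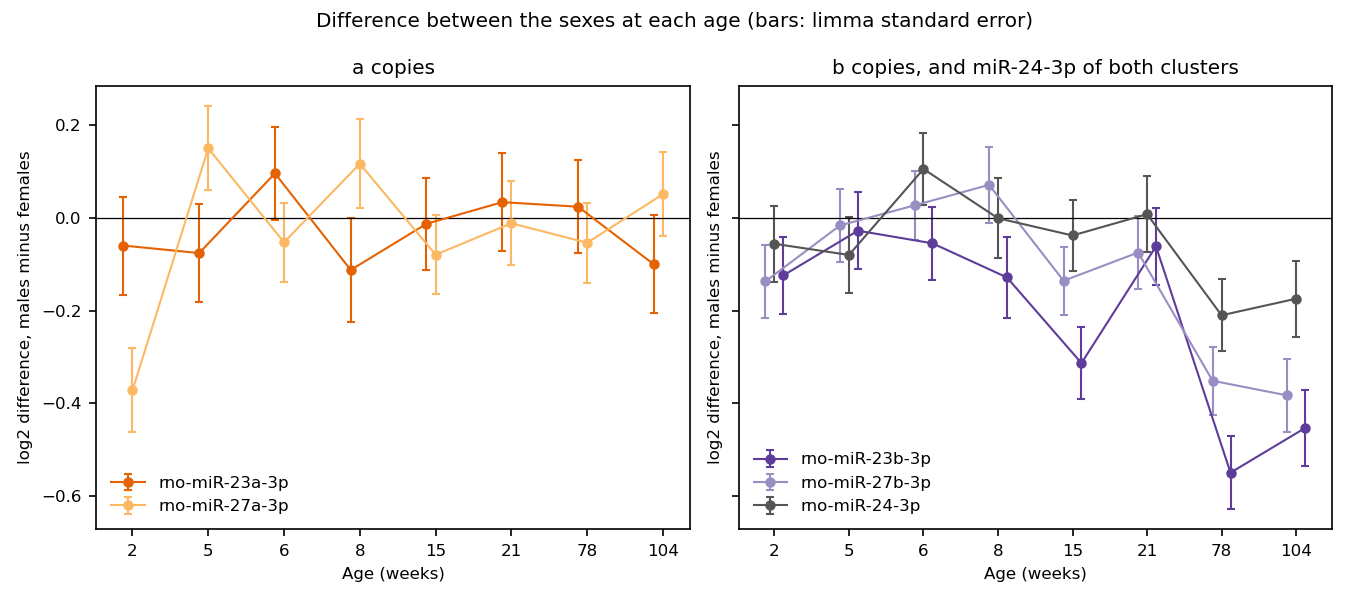
Difference between males and females on the log2 scale (vertical axis, limma estimate with its standard error) by age in weeks (horizontal axis), for the a copies on the left and for the b copies and miR-24-3p on the right. Values under 0 are lower in males; rno-miR-23b-3p reaches -0.55 at 78 weeks and -0.45 at 104 weeks, while rno-miR-23a-3p stays between -0.11 and 0.10.

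The 3p arm of miR-27a followed neither partner closely. In 2-week males its normalized intensity was 6.00, 5.09, 5.25, 6.85 and 5.41, and in 8-week males it was 7.55, 6.26, 7.32 and 7.89, so that the groups overlapped at 1 array. The difference was 0.35 ± 0.09 on the log2 scale (limma, 1.27-fold, adjusted p = 0.00111), with the same sign on 4 of 4 slides, but quantile normalization turned it to -0.027. In 2-week females it was 9.56, 6.69, 6.59 and 6.95, and in 8-week females 6.61, 5.74, 6.78 and 7.67, a difference of -0.14 ± 0.10 (adjusted p = 0.285). Between 15 and 104 weeks it rose by 0.27 ± 0.09 in males (adjusted p = 0.0208), from a mean of 6.83 to one of 8.26, and differed by 0.14 ± 0.09 in females (adjusted p = 0.331). Its adjusted p in males went over 0.05 without replicates 2 or 6 of 104 weeks or replicate 6 of 15 weeks, up to 0.0995, with a rise of at least 0.23. The adjusted p also went over 0.05 with the percentile over all miRNAs (0.21, adjusted p = 0.277) and with normexp (0.39, adjusted p = 0.515).

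At 2 weeks rno-miR-27a-3p was lower in males by -0.37 ± 0.09 (limma, adjusted p = 0.0026). This difference leaned on replicate 3 of the 2-week females, at 9.56, without which it was -0.25 and did not pass (adjusted p = 0.0802), and normexp turned it to 0.026. The percentile over all miRNAs (adjusted p = 0.14), quantile normalization (-0.13, adjusted p = 0.454) and the methods' t-test (adjusted p = 0.265) ended the call as well. At this age 2 of the 3 tubular miRNAs were also lower in males, with a median of -0.45, and their summed normalized intensity lay between 8.14 and 9.40 in males, under the females' 10.6 to 13.1. Their part in the difference was not tested. At the other 7 ages the sexes differed by -0.08 to 0.15, with adjusted p-values of at least 0.762.

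The 3p arm of miR-24, the product of both clusters, had the narrowest range of group means of the 3p arms, from 13.0 ± 1.01 (SD, n = 5) in 78-week males to 17.3 ± 1.66 (SD, n = 5) in 104-week females. It rose in females between 15 and 104 weeks by 0.25 ± 0.08 on the log2 scale (limma, adjusted p = 0.0251) and was lower in males at 78 weeks by -0.21 ± 0.08 (adjusted p = 0.0463). Its probes disagreed on both. For the rise in females 1 probe gave 0.09 and the other 0.36, and for the difference at 78 weeks 1 gave -0.49 and the other -0.03. The difference at 78 weeks also turned to 0.034 when the percentile was taken over all 677 miRNAs, and its adjusted p went over 0.05, up to 0.172, without female replicates 1, 3 or 5 or male replicates 2, 3 or 6 of that age. The rise in females did not pass, with adjusted p-values up to 0.12, without replicates 3 or 5 of 104 weeks or replicates 1 or 2 of 15 weeks. Nor did it pass with the percentile over all miRNAs (adjusted p = 0.169), quantile normalization (0.12, adjusted p = 0.158), normexp (adjusted p = 0.935), all miRNAs tested (adjusted p = 0.0578) or the methods' t-test (adjusted p = 0.115). At 104 weeks the sexes differed by -0.17 ± 0.08 (adjusted p = 0.132).

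**Figure D3:**
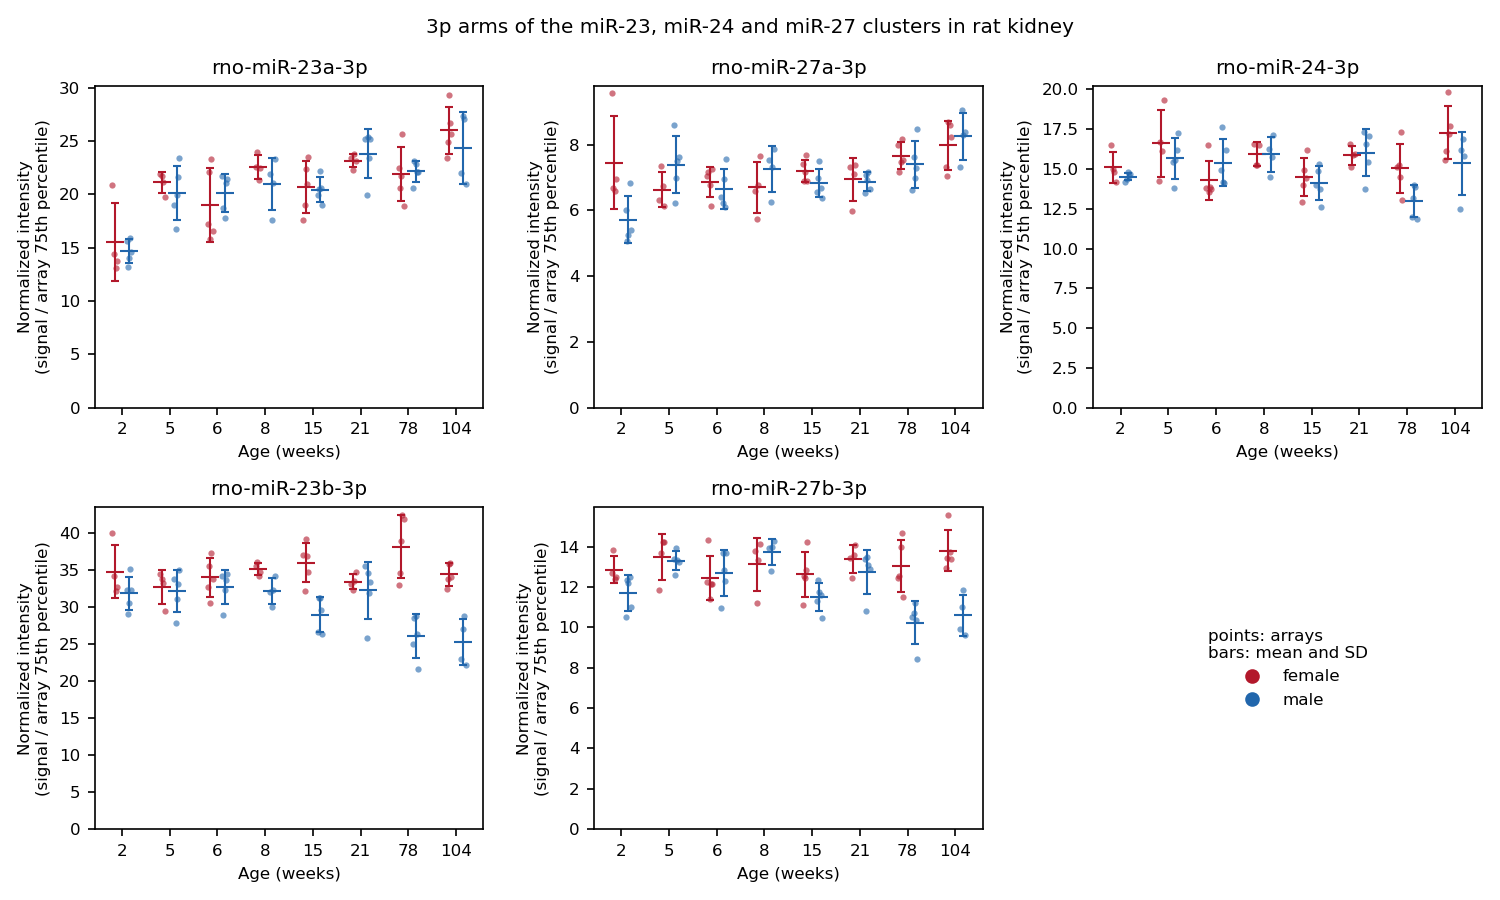
Normalized intensity of the 5 3p arms (vertical axes, signal divided by the array's 75th percentile, each starting at 0) by age in weeks (horizontal axes), with females in red and males in blue. Points are arrays and bars the mean and SD of 4 or 5 arrays; rno-miR-23a-3p is lowest at 2 weeks, and the males of 78 and 104 weeks fall below the females for rno-miR-23b-3p and rno-miR-27b-3p.

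Whether the sexes aged differently was tested for each member by the interaction of age and sex, an F test over 7 terms in 1 limma fit of all arrays. It passed for 3 of the 7 members, rno-miR-23b-3p (adjusted p = 0.000219), rno-miR-27b-3p (adjusted p = 0.00219) and rno-miR-27a-3p (adjusted p = 0.0292), beside 27.7% of all 311 miRNAs. It did not pass for rno-miR-23a-3p (adjusted p = 0.939), rno-miR-24-3p (adjusted p = 0.311), rno-miR-23a-5p (adjusted p = 0.313) or rno-miR-24-2-5p (adjusted p = 0.573). The calls of interaction fell to 1 member with the 75th percentile over miRNAs detected on all arrays and to 0 with the percentile over all miRNAs, with quantile normalization or with normexp. With slide as a block, the adjusted p-values of the 3 were 1.21e-05, 6.83e-05 and 0.0388 in the order named.

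Over all members, the shares past the tests lay below those of all miRNAs in some comparisons and above them in others. With age, 2 of the 7 members passed in females and 1 in males when a fold of 1.5 was required, beside 36.7% and 45.3% of all miRNAs, and 3 and 5 passed by the adjusted p alone, beside 49.8% and 58.8%. In males, besides rno-miR-23a-3p, those passing by p alone were rno-miR-23b-3p (adjusted p = 0.000788), rno-miR-24-3p (adjusted p = 0.014), rno-miR-27a-3p (adjusted p = 0.000342) and rno-miR-27b-3p (adjusted p = 3.14e-05). In females, rno-miR-23a-5p (adjusted p = 0.0271) and rno-miR-24-3p (adjusted p = 0.0418) passed besides rno-miR-23a-3p. The moderated F test was also run with slide as a block and ages compared within a set of slides. In females rno-miR-24-3p then did not pass (adjusted p = 0.0527), and rno-miR-23b-3p did (adjusted p = 0.0329, against 0.192 without the block). The other members named here still passed.

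Between 2 and 8 weeks, 0 members passed with the fold of 1.5 in either sex, beside 21.2% of all miRNAs in females and 29.9% in males. By the adjusted p alone 1 member passed in females, beside 31.8%, and 3 in males, beside 45.0%. All 4 were rises, of rno-miR-23a-3p in both sexes and of rno-miR-27a-3p and rno-miR-27b-3p in males, the latter by 0.23 ± 0.08 (limma, adjusted p = 0.0109) from a mean of 11.7 to one of 13.8. That rise of rno-miR-27b-3p did not pass with the percentile over all miRNAs (0.32, adjusted p = 0.0747) or over those detected on all arrays (0.15, adjusted p = 0.115), with quantile normalization (0.077, adjusted p = 0.326) or with normexp (0.23, adjusted p = 0.903). With slide as a block 1 member was called in each sex, rno-miR-23a-3p in females at 0.59 (adjusted p = 1.01e-05) and rno-miR-24-2-5p in males. Between 15 and 104 weeks, 1 member, rno-miR-23a-5p, passed with the fold in females, beside 5.79%, and 0 in males, beside 13.2%. By p alone 3 members passed in females, beside 10.9%, and 1 in males, beside 23.8%. With slide as a block rno-miR-23b-3p passed by p alone in males as well, at -0.20 (limma, adjusted p = 0.0365).

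Between the sexes, 1 member passed with the fold at 1 or more ages, beside 17.4%, and 5 by the adjusted p alone, beside 42.8%. The 1 with the fold was rno-miR-23a-5p at 78 weeks, an arm near the floor, and no 3p arm passed with it. By age and by p alone, 4 members passed at 78 weeks and 2 at 104 weeks, beside 20.3% of all miRNAs at each of these ages. At 2 weeks 1 member passed, beside 10.9%, and at 15 weeks 1, beside 8.04%. At 5, 6, 8 and 21 weeks 0 members passed, beside 0%, 0.322%, 1.93% and 10.3% of all miRNAs. All 8 of these differences, those of the 5p arm included, were lower in males.

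The changes of the 3p arms were small beside those of other miRNAs. The group means of rno-miR-23a-3p spanned 0.83 on the log2 scale, those of rno-miR-23b-3p 0.60, of rno-miR-27a-3p 0.53, of rno-miR-27b-3p 0.44 and of rno-miR-24-3p 0.41. For the 166 miRNAs found on every array, the median span was 0.99. Only 9 of those miRNAs had a narrower span than rno-miR-24-3p and 11 a narrower one than rno-miR-27b-3p, whereas 70 had a narrower one than rno-miR-23a-3p.

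The 5p arms of the a cluster lay near the floor, the value of 0.0171 (-5.87 on the log2 scale) to which all lower scaled values were set. It stands for undetected miRNAs and, on some arrays, for weak detected ones. For rno-miR-23a-5p the normalized intensity ran from the floor to 0.135, with a median of 0.0298 over the arrays, and for rno-miR-24-2-5p from the floor to 0.0791, with a median of 0.0384. In 78-week females rno-miR-23a-5p averaged 0.0787 ± 0.0322 (SD, n = 5, detected on 5 arrays) and in 78-week males 0.0295 ± 0.0177 (SD, n = 5, detected on 5 arrays), a log2 difference of -1.48 ± 0.52 (limma, adjusted p = 0.0338). In 104-week females it averaged 0.0192 ± 0.0037 (SD, n = 5) and was detected on 3 arrays, against 0.0639 ± 0.0382 (SD, n = 5) with detection on 4 arrays at 15 weeks. That difference of -1.50 ± 0.52 had an adjusted p of 0.0498, and it did not pass in 51 of the 74 fits that left out 1 array. Normexp gave 0.020 in its place, and the difference at 78 weeks shrank to -0.28. The latter also lost its call, with adjusted p-values up to 0.107, without female replicates 3, 5 or 6 or male replicates 2, 4 or 5. At levels this close to the floor, the 5p arm could not be set against the 3p arm of the same hairpin. For rno-miR-24-2-5p 0 tests passed, although with slide as a block it was called between 2 and 8 weeks in males, at 0.80 (limma, adjusted p = 0.0387) against 0.76 (adjusted p = 0.0673) without. Its largest difference between ages was 1.15 in males, 104 weeks against 2 weeks.

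**Figure D4:**
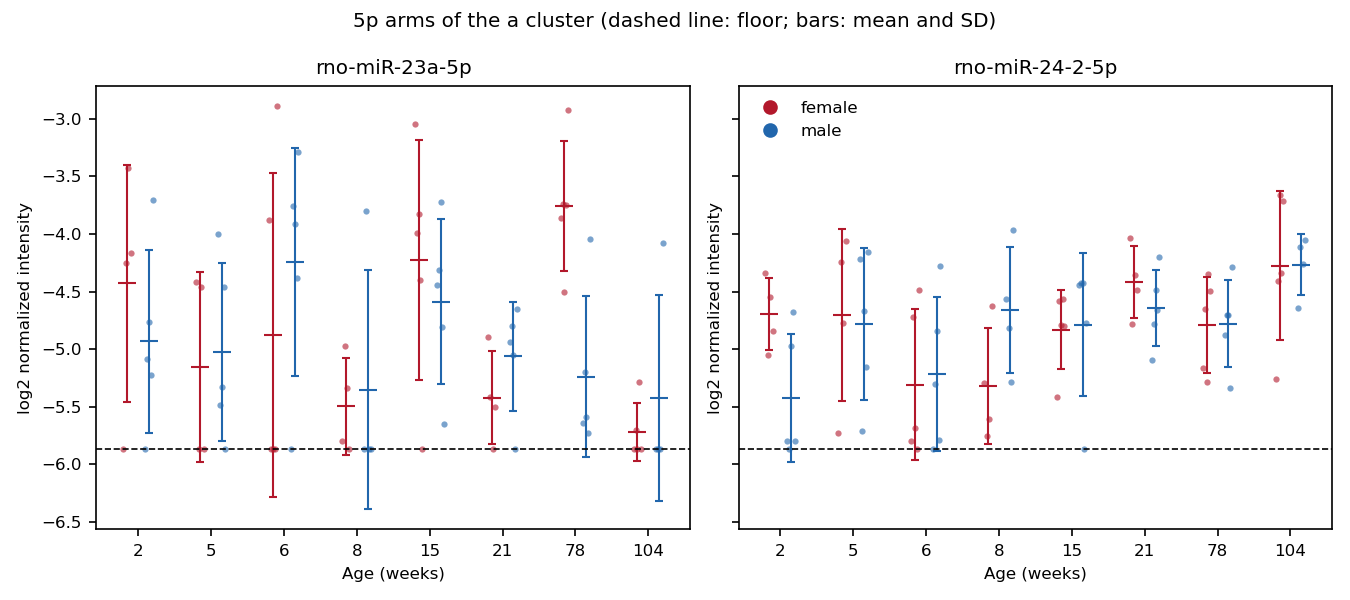
Log2 normalized intensity (vertical axis) of the detected 5p arms, both of the a cluster, by age in weeks (horizontal axis), with females in red and males in blue. Points are arrays, bars the mean and SD of 4 or 5 arrays and the dashed line the floor of -5.87; many arrays of rno-miR-23a-5p lie on or close to it.

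The likeness of neighbours on a transcript was described by correlation. Over the 16 group means, rno-miR-23b-3p and rno-miR-27b-3p correlated at r = 0.81 and rno-miR-23a-3p and rno-miR-27a-3p at r = 0.57, given as a description, since the miRNAs were read on the same arrays with the same scaling. Between the copies, r was -0.17 for the miR-23 copies and -0.05 for the miR-27 copies. The log2 ratio of rno-miR-23b-3p to rno-miR-27b-3p had group means within 0.32 of each other, against 0.74 for rno-miR-23a-3p to rno-miR-27a-3p. In 2-week females the latter averaged 1.05 ± 0.08 (SD, n = 4) and in 8-week females 1.76 ± 0.22 (SD, n = 4). The 3p arm of miR-24 correlated at 0.77 with rno-miR-27b-3p and at 0.13 with rno-miR-27a-3p, and at 0.40 with rno-miR-23b-3p and 0.37 with rno-miR-23a-3p.

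Among 161 other miRNAs detected on all arrays, those with the pattern most like each member over the 16 group means were named by Pearson's r, as a description. For rno-miR-23a-3p they were rno-miR-425-5p (r = 0.95) and rno-miR-140-3p (r = 0.94). For rno-miR-23b-3p they were rno-miR-352 (r = 0.90) and rno-miR-421-3p (r = 0.84), and for rno-miR-27b-3p rno-miR-107-3p (r = 0.77) and rno-miR-30d-5p (r = 0.75). For rno-miR-27a-3p they were the leukocyte miRNA rno-miR-142-3p (r = 0.73) and rno-miR-140-5p (r = 0.73), and for rno-miR-24-3p the smooth muscle miRNA rno-miR-145-5p (r = 0.69) and rno-miR-139-5p (r = 0.68).

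miRNAs that mark cell types moved with the same comparisons. The summed normalized intensity of 4 leukocyte miRNAs (miR-223-3p, miR-150-5p and both arms of miR-142) lay between 4.05 and 7.10 in 78-week males and between 2.59 and 3.51 in 78-week females. At 104 weeks it lay between 5.56 and 7.67 in males and between 3.32 and 3.57 in females, so that no male of these ages was as low as a female of the same age. By the adjusted p alone 3 of the 4 were higher in males at 78 weeks and 4 at 104 weeks, with a median log2 difference of 0.81 and 1.0, against -0.10 and -0.02 over all 311 miRNAs. At each of these ages 20.3% of all miRNAs differed between the sexes by the adjusted p. The sum of the 3 tubular miRNAs ran the other way at 104 weeks, from 13.3 to 16 in males and from 21.4 to 23.3 in females. It was 14.3 to 21.2 in males and 20.0 to 25.8 in females at 78 weeks. Between 15 and 104 weeks 4 of the 4 leukocyte miRNAs rose in males, with a median of 1.30, and 2 of 4 in females, with a median of 0.30. Over the same ages 2 of the 3 tubular miRNAs fell in males, with a median of -0.62, and 0 changed in females, while the erythroid miRNAs rose in 2 of 2 in males and 1 of 2 in females. Of the 4 endothelial miRNAs named below, 2 rose over these ages in males, with a median of 0.11 over the list, and 0 changed in females. Their sum overlapped in males, at 13.4 to 16.6 at 15 weeks and 12.8 to 14.6 at 104 weeks. The striated muscle miRNA miR-206-3p, detected on 17 arrays, fell in males and did not change in females. The median over all miRNAs was 0 in either sex, and by the adjusted p alone 23.8% of them passed in males and 10.9% in females. Of the leukocyte and erythroid lists, miR-142-5p was detected on 10 arrays and miR-144-3p on 5, so most of their values are the floor. The part of these cell types in the lower b copies of old males and in the ratios that shifted between 15 and 104 weeks or between the sexes was not tested.

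Between 2 and 8 weeks all 3 tubular miRNAs rose in both sexes, with a median of 0.57 in females and 1.29 in males, against 0 over all miRNAs in either sex. By the adjusted p alone 31.8% of all miRNAs passed in females and 45.0% in males. The leukocyte list rose in 2 of 4 in each sex. Of the 4 endothelial miRNAs (miR-126a-3p, miR-126a-5p, miR-221-3p and miR-222-3p) 1 fell in each sex and 0 rose, with a median of -0.26 in females and -0.07 in males. Their sum was 16.8 to 23.2 in females of 2 weeks and 13.9 to 16.8 at 8 weeks. In males the sums overlapped, at 16.5 to 20.9 at 2 weeks and 16.3 to 16.8 at 8 weeks. At 78 and 104 weeks 0 of the 4 endothelial miRNAs differed between the sexes. Of the smooth muscle miRNAs miR-143-3p and miR-145-5p, 0 passed in any of the 12 comparisons. Of the 2 erythroid miRNAs on the array (miR-144-3p and miR-451-5p) 1 was higher in males at 78 and at 104 weeks. Of the striated muscle list, rno-miR-206-3p was detected on 17 arrays and the other 2 on 0 arrays, and 0 differed between the sexes at these 2 ages. By the adjusted p rno-miR-206-3p was higher in males at 15 and at 21 weeks. The part of all these miRNAs in the rise of rno-miR-23a-3p between 2 and 8 weeks was not tested.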

How the data were processed

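Whole-kidney total RNA of 74 F344 rats (8 ages, both sexes, 4 or 5 animals per group) was run on Agilent rat miRNA arrays with a single Cy3 label. The authors deposited scanner intensities, which Agilent Feature Extraction 10.7.3.1 had corrected for background and summarized per miRNA (total gene signal). Arrays were not yet scaled to each other, and an undetected miRNA had 0.1. Each array has 14255 features, of which 13540 read 677 miRNAs, and 190 to 264 miRNAs were detected per array. The number of arrays limits the precision. A deposited table of normalized values was not used, since 69 of its 74 columns held values whose scanner output stood under another sample name. Which naming is right was not tested.

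Each array was divided by its 75th percentile over the 311 miRNAs detected on at least 1 array (81.2 to 283). Scaled values under 0.0171, the lowest detected signal (1.39) over the smallest percentile, were set to it before the log2 transformation. Groups came from the labels. Differences were tested in R 4.3.3 with limma 3.58.1, with 1 mean per age and sex and 58 residual degrees of freedom, age within a sex by a moderated F test over 8 ages, and p-values were adjusted over 311 miRNAs by the Benjamini-Hochberg method. A call needed an adjusted p under 0.05 and, unless said otherwise or for the interaction, a fold of 1.5; an age effect needed a pair of ages with this fold and an unadjusted p under 0.05. Log2 ratios of copies were compared by exact two-sided permutation tests, and a call of a ratio needed an adjusted p under 0.05 alone. The fits were tested on simulated data. The fit reported and the methods' tests were run there without a slide effect. Only the fit with slide as a fixed block was given a slide effect, common to all miRNAs. How the fit reported behaves under a slide effect was thus not tested.

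Alternative settings placed the floor before scaling, took the percentile over all miRNAs or over those detected on all arrays, and used quantile normalization, normexp with an offset of 50, 2 filters, slide as a fixed or random block (statmod 1.5.0), the replicate number as a block, the methods' t-test and analysis of variance, no fold threshold, and each array left out. Single probes and differences within slides were added later, with the values in view. The members, the marker lists (tubule, endothelium, smooth muscle, leukocytes, erythroid cells and striated muscle) and the tests were chosen with earlier results of these data known. Every member was named, with the 2 miRNAs most like each 3p arm and the marker miRNAs. Sequences and GRCr8 positions are from RefSeq. The arrays were designed on an older build, and no coordinates were converted.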

Additional observations from a re-analysis of the deposited data

Results flagged for a closer look

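An array was set apart where its distance to the nearest of its group, over the range of the group, passed Dixon's critical value, which chance alone passes in about 1 of 20 groups. Of 144 groups tested over the members and both ratios, 13 held such an array. Replicate 6 of the 78-week males stood apart in 3 of them. Its rno-miR-27b-3p was 3.07 on the log2 scale, against 3.37 to 3.48 in the other males of that age. Its log2 ratio of miR-23a to miR-23b was 0.033, against -0.34 to -0.26, and that of miR-27a to miR-27b was 0.012, against -0.68 to -0.49. Replicate 3 of the 2-week females stood apart in 2, with rno-miR-27a-3p at 3.26 on the log2 scale against 2.72 to 2.80, and a log2 ratio of miR-23a to miR-23b of -0.93 against -1.30 to -1.25.

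The others were single. The log2 ratio of miR-23a to miR-23b was -0.86 in replicate 4 of the 6-week males, against -0.69 to -0.63. Replicate 2 of the 6-week females had rno-miR-24-3p at 4.04 against 3.76 to 3.80, and replicate 2 of the 21-week males had rno-miR-27b-3p at 3.43 against 3.69 to 3.75. The remaining 5 concerned 5p arms near the floor: rno-miR-23a-5p at -3.80 in replicate 3 of the 8-week males, at -5.29 in replicate 4 of the 104-week females and at -4.08 in replicate 6 of the 104-week males, and rno-miR-24-2-5p at -5.42 in replicate 1 of the 15-week females and at -5.87, the floor, in replicate 4 of the 15-week males.

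The course with age differed between the sexes by limma's interaction test for rno-miR-23b-3p (adjusted p = 0.000219), rno-miR-27b-3p (adjusted p = 0.00219) and rno-miR-27a-3p (adjusted p = 0.0292). Of all 311 miRNAs, 27.7% passed this test. The calls depended on the scaling. They fell to 1 member with the percentile over miRNAs detected on all arrays, and to 0 with that over all miRNAs, quantile normalization or normexp.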

How the results depend on the processing

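Counts of members called are given in the order age in females (2 as reported), age in males (1), 8 against 2 weeks in females (0) and males (0), 104 against 15 weeks in females (1) and males (0), sexes (1) and interaction (3), and only counts that moved by over 1.5 times are named. With the floor before scaling they were 1 for age in females, 1 for 8 weeks in males, 0 for 104 weeks in females and 0 for the sexes. With the percentile over miRNAs detected on all arrays they were 3 for age in males, 0 for 104 weeks in females and 1 for the interaction. With that over all miRNAs they were 3 for age in males, 1 for 8 weeks in either sex, 0 for 104 weeks in females and 0 for the interaction. Quantile normalization gave 1 for age in females, 0 for 104 weeks in females and 0 for the interaction. Normexp gave 0 for age in females, 2 for age in males, 0 for 104 weeks in females, 0 for the sexes and 0 for the interaction. Testing all miRNAs, or the methods' t-test, gave 0 for 104 weeks in females and 0 for the sexes. Slide as a fixed block gave 1 for age in females, 0 for age in males and 1 for 8 weeks in either sex, and as a random block 1 for 8 weeks in males. Without the fold threshold the counts were 5 for age in males, 1 and 3 for 8 weeks in females and males, 3 and 1 for 104 weeks in females and males, and 5 for the sexes. Leaving out 1 array gave, in the same order, 1 to 3, 1 to 2, 0 to 2, 0 to 1, 0 to 1, 0 to 0, 0 to 2 and 2 to 3, and for the ratios 1 to 2 calls between 2 and 8 weeks (2 as reported), 3 to 3 between 15 and 104 weeks (3) and 0 to 4 between the sexes (3). The cause of these moves was not tested, except that leaving out an array of 104 weeks raises the smallest p that the exact test of the sexes can give.

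Of the 16 differences in level past the threshold, 4 turned under 1 setting each: rno-miR-24-3p between the sexes at 78 weeks with the percentile over all miRNAs (0.034), rno-miR-27a-3p between 2 and 8 weeks in males with quantile normalization (-0.027), and with normexp rno-miR-27a-3p between the sexes at 2 weeks (0.026) and rno-miR-23a-5p between 15 and 104 weeks in females (0.020). The 16 were taken by the adjusted p alone. With normexp all 16 no longer passed, with the percentile over all miRNAs or quantile normalization 12 each, and with the methods' t-test 8. The 8 called differences of the ratios kept their direction and lay between 0.32 and 0.57 under the floor before scaling, normexp, slide as a block and the replicate block. They kept their calls with the floor before scaling and with normexp, and no p-value was computed for the ratios under either block.

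The labels do not say whether the replicate numbers pair the animals. After group means were removed, arrays of opposite sex with the same number and age correlated at 0.038 on average over 28 pairs. Those of other numbers correlated at -0.004 over 143. A low mean correlation cannot show that there was no pairing. The replicate block gave 1 call for age in females, 1 for 8 against 2 weeks in females and 0 for 104 against 15 weeks in females. Sharing a slide gave 0.155 over 238 pairs. The 5p arms lie near the floor, where the signal limits what can be told from background.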
